A study of Rattus norvegicus with 8 samples.

Results

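Astrocytes clear the glutamate released at synapses, move water at the vessels they wrap, and share ions and small molecules through channels between cells. A set of 5 genes for these tasks was followed in the lower lumbar spinal cord of rats after an injury higher up. The set was named by gene rather than by measured values, but with earlier results of these data known. It holds Slc1a2 (ENSRNOG00000005479), Slc1a3 (ENSRNOG00000016163), Glul (ENSRNOG00000049560), Aqp4 (ENSRNOG00000016043) and Gja1 (ENSRNOG00000000805), 5 of the 32883 gene identifiers in the table. Slc1a2 and Slc1a3 encode the glial glutamate transporters GLT-1 and GLAST, which take glutamate up together with sodium. Glul encodes glutamine synthetase, which turns that glutamate into glutamine for return to neurons. Aqp4 encodes the main water channel of astrocyte end-feet, and Gja1 encodes connexin 43, the main gap junction protein of astrocytes. After damage to nerve tissue, astrocytes can take on a reactive state, best known for more of the filament protein GFAP.

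The animals were Sprague Dawley rats, an outbred strain. Of the 8 libraries, 4 came from the lower cord of rats without spinal cord injury and 4 from rats sampled 4 days after a hemisection, a cut through 1 side of the cord, at thoracic level 9. The question was how such an injury alters gene expression in cord tissue below it that was not cut. The sources used here do not give the age and sex of the rats, the side of the cord taken, whether uninjured rats had a sham operation, or whether each library was a separate animal. RNA was read with CEL-Seq2, which tags and counts each captured molecule once at its 3' end, so that a value is a number of molecules. Levels are given as CPM, the count per 1000000 molecules of tested genes, scaled between libraries with edgeR's TMM factors.

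Libraries differed in depth. The 2 libraries numbered 3 were the shallowest, with totals of 119808 (uninjured) and 153060 (injured) molecules, against 238236 to 405537 in the other 6. Same-numbered libraries of the 2 groups deviated from their group means together, least so for number 3, and the numbers were therefore also used as pairs. The comparisons of the 4 measured genes below are given with and without both libraries numbered 3. For the fits and the summed share, leaving these 2 libraries out was chosen after the data were seen. The symbols of the 5 identifiers come from the definition of the set. Symbols could not be attached to the other identifiers, so that markers of astrocytes, microglia, oligodendrocytes and neurons were not analysed here, and the cell makeup of the libraries was not tested.

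Slc1a2 was almost absent from the counts, while the other 4 genes were well covered. The identifier for Slc1a2 received 1 molecule in uninjured replicate 3, 1 in uninjured replicate 4, 1 in injured replicate 4 and 0 in the other 5 libraries. These are 3 molecules among 2286186, with an exact 95% Poisson interval of 0.619 to 8.77 molecules that covers counting error only. In the 5 libraries without a molecule, the limit taken for a count of 0 was 3 molecules, a rounded limit below the 3.69 of the two-sided exact interval. It corresponds to 7.71 CPM in uninjured replicate 1, 13.2 CPM in uninjured replicate 2, and 8.29, 8.02 and 23.4 CPM in injured replicates 1 to 3. GLT-1 is known as an abundant astrocyte protein, and the near absence of Slc1a2 goes against what its name leads one to look for in spinal cord. Of the 12968 identifiers with any molecule, 2553 had 3 or fewer over all libraries, Slc1a2 among them. The count says how many molecules the authors' processing assigned to this identifier. The sources used here do not name the annotation release behind that assignment. The pairing of this identifier with the symbol Slc1a2 could not be checked either, so that the count is that of the identifier. The reason for the low count was not tested. Slc1a2 did not pass the filter on low counts. It entered only the fits without that filter, where its 2 uninjured molecules and 1 injured molecule give no usable fold change. The rest of the account concerns the other 4 genes.

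No difference between injured and uninjured cord passed the test for Slc1a3, Glul, Aqp4 or Gja1. In edgeR's quasi-likelihood test with Benjamini-Hochberg adjustment over all tested genes, 0 of the 4 were called at an adjusted p under 0.05, against 0.986% of all 4159 tested genes (41 genes, all higher after injury). At an unadjusted p under 0.05, edgeR gave 0 of the 4 (7.84% of all tested genes) and limma-voom 0 of the 4 (9.04% of all). DESeq2 gave 1 of the 4, Gja1 (2.68% of the 12965 genes it gave a p-value). The DESeq2 share is over a wider set that includes genes with few molecules, so that it cannot be set against the other 2 shares. With the replicate number as a block, edgeR again called 0 of the 4, against 2.64% of all tested genes (110 genes), and Gja1 alone had an unadjusted p under 0.05, as did 14.2% of all tested genes. The fitted values lay on both sides of 0, higher after injury for Gja1 and Slc1a3 and lower for Aqp4 and Glul. For 0 of the 4 genes did the groups separate fully, while every injured library lay above every uninjured one for 3.08% of all tested genes and below for 1.78%. The median of the 4 log2 fold changes was 0.05, against -0.01 over all tested genes, and the median size without sign was 0.31 against 0.22. In tissue samples such as these, fewer cells of a type and less RNA per cell cannot be told apart.

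**Figure D1:**
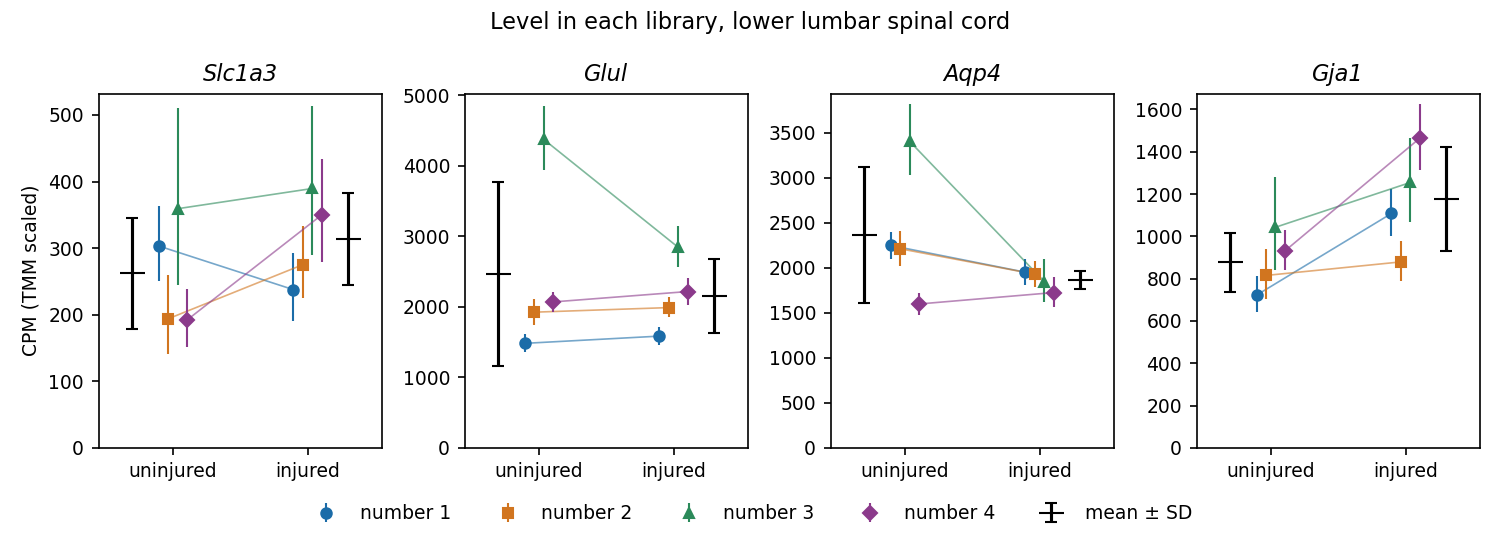
Level of each gene in CPM (vertical axis, linear from 0) in the uninjured and injured libraries. Points are single libraries with exact 95% Poisson intervals for counting error, lines join libraries of the same number, and black bars are group means with SD (n = 4). Gja1 is higher in the injured library of every number, while for Glul and Aqp4 uninjured replicate 3 stands above the other 7 libraries.

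Of the glutamate transporters, Slc1a3 was the one that could be measured. Uninjured replicates 1 to 4 held 118, 44, 31 and 80 molecules of it, and injured replicates 1 to 4 held 86, 103, 50 and 83. Scaled to depth and by the TMM factors, Slc1a3 stood at 303, 194, 359 and 192 CPM in the uninjured libraries. It stood at 238, 275, 390 and 350 CPM in the injured ones. The groups overlapped, since uninjured replicate 3 lay above 3 of the 4 injured libraries in CPM. As a share of all molecules, uninjured replicate 1 (0.0315%) lay above uninjured replicate 3 (0.0259%). The means were 262 ± 83.1 CPM uninjured and 313 ± 69.2 CPM injured (SD, n = 4 each). The fitted log2 fold change of Slc1a3 was 0.28 ± 0.26 (SE; edgeR adjusted p = 0.984), a fold of 1.21 with a 95% interval of 0.828 to 1.77. With both libraries numbered 3 left out, the log2 fold change of Slc1a3 was 0.31 (edgeR adjusted p = 0.809). Fitted on numbers 1 and 2 only it was 0.026, and on numbers 3 and 4 only it was 0.50. By number, the injured to uninjured ratio was 0.783, 1.42, 1.08 and 1.82 for numbers 1 to 4, so that number 1 went the other way. For Slc1a3, counting error alone would give a coefficient of variation of 15.1% in the uninjured group, where 31.7% was seen, and 12.3% in the injured group, where 22.1% was seen.

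Glul, the next step in handling glutamate, was among the most abundant transcripts. It ranked between 29 and 73 among all identifiers within each library. Molecules of Glul numbered 577, 437, 378 and 863 in uninjured replicates 1 to 4 and 574, 745, 365 and 526 in injured replicates 1 to 4. In CPM these were 1483, 1925, 4380 and 2071 uninjured against 1586, 1991, 2844 and 2218 injured. Uninjured replicate 3 stood far above the rest, and injured replicate 3 was the highest of its group. In the other 3 numbers the 2 groups nearly coincided: the injured to uninjured ratio was 1.07, 1.03 and 1.07 for numbers 1, 2 and 4, and 0.649 for number 3. The group means were 2465 ± 1301 CPM uninjured and 2160 ± 526 CPM injured (SD, n = 4 each). The fitted log2 fold change of Glul was -0.18 ± 0.32 (SE; edgeR adjusted p = 0.991), a fold of 0.882 with a 95% interval of 0.553 to 1.41. The sign of that value rested on 1 library. Without uninjured replicate 3 the log2 fold change of Glul was 0.23 (edgeR adjusted p = 0.886), and without both libraries numbered 3 it was 0.080 (edgeR adjusted p = 0.964). With those 2 libraries left out and the number as a block, it was 0.082, and the 95% interval of the fold narrowed to 0.880 to 1.27.

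The water channel gene Aqp4 was near Glul in abundance, at rank 34 to 70 within each library. Its molecules numbered 875, 502, 294 and 666 in uninjured replicates 1 to 4 and 706, 722, 237 and 409 in injured replicates 1 to 4. Scaled to depth and by the TMM factors, Aqp4 stood at 2249, 2212, 3406 and 1598 CPM in the uninjured libraries. It stood at 1951, 1929, 1847 and 1725 CPM in the injured ones. As a share of all molecules, uninjured replicates 3 and 1 were close, at 0.245% and 0.234%. Their TMM factors were 0.764 and 1.12. In CPM the injured libraries lay close together, below 3 of the 4 uninjured libraries and above uninjured replicate 4. By share, injured replicates 1 to 4 stood at 0.197%, 0.191%, 0.155% and 0.159%, and uninjured replicates 2 and 4 at 0.211% and 0.164%. Injured replicates 3 and 4 thus lay below uninjured replicate 4 by share. The means were 2366 ± 755 CPM uninjured and 1863 ± 102 CPM injured (SD, n = 4 each). In CPM the spread of the injured libraries, a coefficient of variation of 5.49%, was near the 4.82% that counting error alone would give. Among the uninjured libraries 31.9% was seen in CPM. This contrast depends on the TMM factors: the shares of all molecules ran from 0.155% to 0.197% injured and from 0.164% to 0.245% uninjured. For Aqp4 the fit gave -0.34 ± 0.26 on the log2 scale (SE; edgeR adjusted p = 0.919), a fold of 0.792 with a 95% interval of 0.543 to 1.16. Of all tested genes, 32.0% had a larger fitted change without regard to sign. By number, the injured to uninjured ratio in CPM was 0.867, 0.872, 0.542 and 1.08 for numbers 1 to 4. By share of all molecules, the injured library was the lower in every number, number 4 included (0.159% against 0.164%). Much of the size came from number 3: without uninjured replicate 3 the log2 fold change of Aqp4 was -0.12 (edgeR adjusted p = 0.942), and without both libraries numbered 3 it was -0.11 (edgeR adjusted p = 0.941). In the latter fit the 95% interval of the fold was 0.664 to 1.29.

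Gja1, the connexin 43 gene, had the largest fitted value of the 4. The uninjured replicates 1 to 4 gave 281, 185, 90 and 388 molecules of it, and the injured replicates 1 to 4 gave 401, 329, 161 and 347. In CPM, Gja1 stood at 722, 815, 1043 and 931 uninjured and at 1108, 879, 1254 and 1463 injured. In CPM, injured replicate 2 lay below 2 of the uninjured libraries, and the other 3 injured libraries lay above all of them. As a share of all molecules, injured replicate 2 (0.0869%) lay below uninjured replicate 4 (0.0957%) only. Every injured library was above the uninjured median of 873 CPM. The means were 878 ± 139 CPM uninjured and 1176 ± 246 CPM injured (SD, n = 4 each). The fitted log2 fold change of Gja1 was 0.43 ± 0.23 (SE; edgeR adjusted p = 0.773), a fold of 1.34 with a 95% interval of 0.956 to 1.89. This value lay at percentile 87.9 of the fitted values of all tested genes, and 22.2% of them had a larger one without regard to sign. The gene did not pass the test. The upper end of the interval lay below 2-fold here but reached 2.02 without both libraries numbered 3 and 2.31 in numbers 3 and 4 alone. It reached 2.11 without injured replicate 2, 2.01 without injured replicate 1 and 2.01 without uninjured replicate 4.

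By number, the injured to uninjured ratio of Gja1 was 1.53, 1.08, 1.20 and 1.57 for numbers 1 to 4. Gja1 was thus higher in the injured library of 4 of 4 pairs, which also held for 10.7% of all tested genes (445 of 4159). With the replicate number as a block, the log2 fold change of Gja1 was 0.42 ± 0.16 (SE; edgeR adjusted p = 0.215). Without both libraries numbered 3 it was 0.48 (edgeR adjusted p = 0.601). Gja1 passed the threshold in 1 of 25 alternatives, in which both libraries numbered 3 were left out and the number was used as a block. There the log2 fold change was 0.47 ± 0.13 (SE; edgeR adjusted p = 0.0134), a fold of 1.38 with a 95% interval of 1.16 to 1.66, and 383 genes were called in all. That combination was chosen after the data were seen, and over the 25 alternatives the adjusted p of Gja1 ranged from 0.0134 to 0.9995. Leaving out 1 library at a time gave log2 fold changes between 0.30 and 0.55, with 0 of 8 called. Every alternative placed Gja1 higher after injury.

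**Figure D2:**
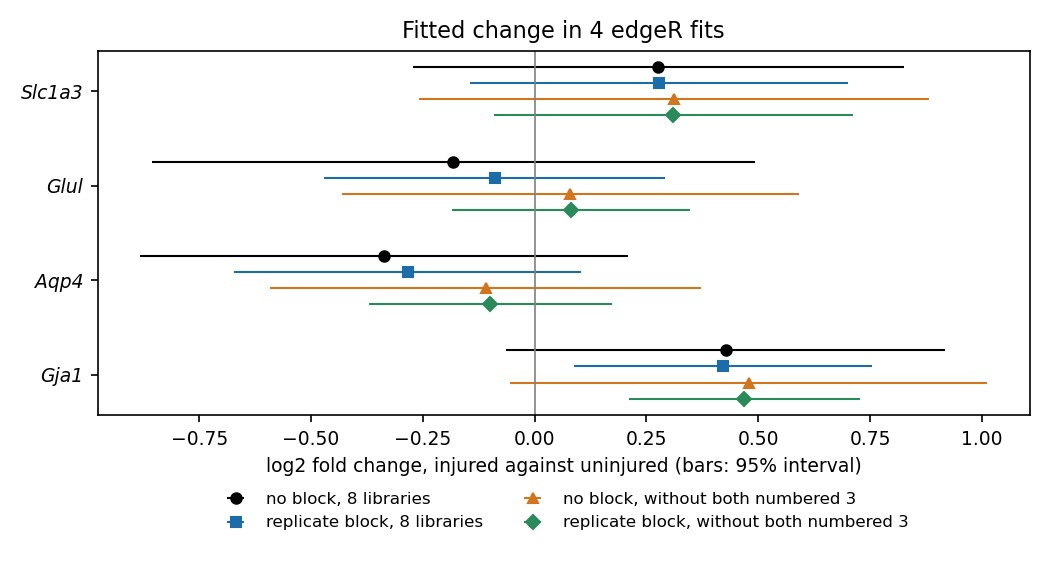
Fitted log2 fold change of injured against uninjured cord (horizontal axis) for each gene in 4 edgeR fits, with 95% intervals as bars. The points for Gja1 lie between 0.42 and 0.48, those for Slc1a3 between 0.28 and 0.31, and those for Glul change sign when both libraries numbered 3 are left out.

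Each molecule was counted once at its 3' end, so that no scaling for transcript length applies, although transcripts may be captured with unequal efficiency. Ratios between genes within a library need no scaling for library totals, and they were compared between the groups for the 6 pairs that leave out Slc1a2. Molecules that share an identifier may be lost from the counts, so that ratios can still shift with depth. For Aqp4, a correction for repeated identifiers added 12.5% in uninjured replicate 1 and 3.01% in injured replicate 3. The largest shift was in the ratio of Gja1 to Aqp4, the gap junction gene against the water channel gene. For every 1 molecule of Aqp4 there were 0.321, 0.369, 0.306 and 0.583 of Gja1 in uninjured replicates 1 to 4, and 0.568, 0.456, 0.679 and 0.848 in injured replicates 1 to 4. The ratio was higher in the injured library of all 4 numbers, but the groups overlapped, because uninjured replicate 4 lay above injured replicates 1 and 2. The mean log2 ratio was -1.39 ± 0.42 uninjured and -0.69 ± 0.38 injured (SD, n = 4 each), a difference of 0.71 (exact two-sided permutation p = 0.0857, adjusted over the 6 pairs p = 0.257). The difference was 0.56 without both libraries numbered 3. It was 0.56 within numbers 1 and 2, and 0.85 within numbers 3 and 4. After correction for repeated identifiers in all 8 libraries it was 0.73.

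The next largest shift was in the ratio of Slc1a3 to Aqp4, which did not pass the test either. There were 0.135, 0.0876, 0.105 and 0.120 molecules of Slc1a3 for each molecule of Aqp4 in uninjured replicates 1 to 4, and 0.122, 0.143, 0.211 and 0.203 in injured replicates 1 to 4. Only injured replicate 1 lay within the uninjured range. The mean log2 ratio differed by 0.58 (exact two-sided permutation p = 0.0571, adjusted over the 6 pairs p = 0.257, n = 4 each). The difference was 0.44 without both libraries numbered 3, 0.28 within numbers 1 and 2, and 0.88 within numbers 3 and 4. For the other 4 pairs the differences in mean log2 ratio were 0.51 for Gja1 to Glul, 0.38 for Slc1a3 to Glul, 0.20 for Glul to Aqp4 and 0.13 for Gja1 to Slc1a3. Without both libraries numbered 3 they were 0.38, 0.26, 0.18 and 0.12 in the same order. Within numbers 1 and 2 they were 0.29, 0.0043, 0.27 and 0.29. Within numbers 3 and 4 they were 0.72, 0.75, 0.12 and -0.032. For Slc1a3 to Glul, numbers 1 and 2 moved in opposite directions. Its log2 ratio went from -2.29 uninjured to -2.74 injured in number 1, and from -3.31 to -2.85 in number 2. It was higher in the injured library of 3 of 4 pairs. The exact permutation p-values of these other 4 pairs lay between 0.200 and 0.657 before adjustment. With 4 libraries against 4 the smallest p is 0.0286, so that 1 pair alone could reach an adjusted p of 0.171 at best. The design therefore could not have called 1 pair alone over this family. These permutations ignore the pairing by number. With signs exchanged within same-numbered pairs instead, the exact p was 0.125 for Gja1 to Aqp4 and for Gja1 to Glul, both higher in 4 of 4 pairs, and 0.125 is the smallest that 4 pairs can give (adjusted over the 6 pairs p = 0.300).

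**Figure D3:**
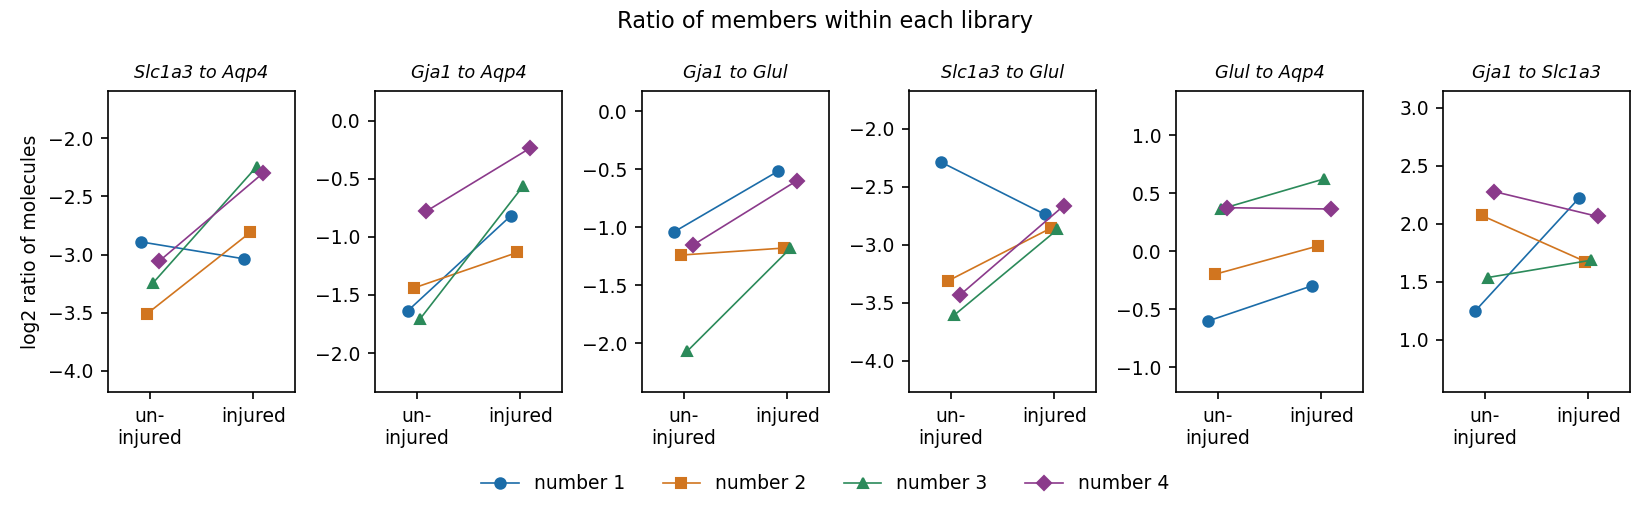
Log2 ratio of molecules between 2 genes of the set within each library (vertical axes, all of the same height), for 6 pairs. Each line joins the uninjured and the injured library of 1 number. The ratio of Gja1 to Aqp4 is higher in the injured library of all 4 numbers, and the ratio of Slc1a3 to Aqp4 is higher in numbers 2 to 4.

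The 5 genes together took less than 1% of the molecules of any library. They took 0.494%, 0.490%, 0.663% and 0.493% of all molecules in uninjured replicates 1 to 4, and 0.492%, 0.501%, 0.531% and 0.531% in injured replicates 1 to 4. Uninjured replicate 3 was the exception, with an exact 95% binomial interval of 0.618% to 0.710%, above the intervals of the other 7 libraries. The mean was 0.535% ± 0.0852 uninjured and 0.514% ± 0.0200 injured (SD, n = 4 each). The order of the means rested on uninjured replicate 3: without both libraries numbered 3 they were 0.492% uninjured and 0.508% injured. Within the set, Aqp4 made up 33.3% to 47.3% of the molecules in uninjured libraries and 29.2% to 40.0% in injured ones, and Gja1 made up 11.3% to 19.4% and 17.3% to 25.4%. These ranges overlapped for both genes, and without both libraries numbered 3 they were 33.3% to 47.3% and 29.9% to 40.0% for Aqp4, and 15.2% to 19.4% and 17.3% to 25.4% for Gja1. Glul made up 31.2% to 47.6% uninjured and 32.5% to 44.9% injured, or 31.2% to 43.2% and 32.5% to 39.2% without number 3.

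**Figure D4:**
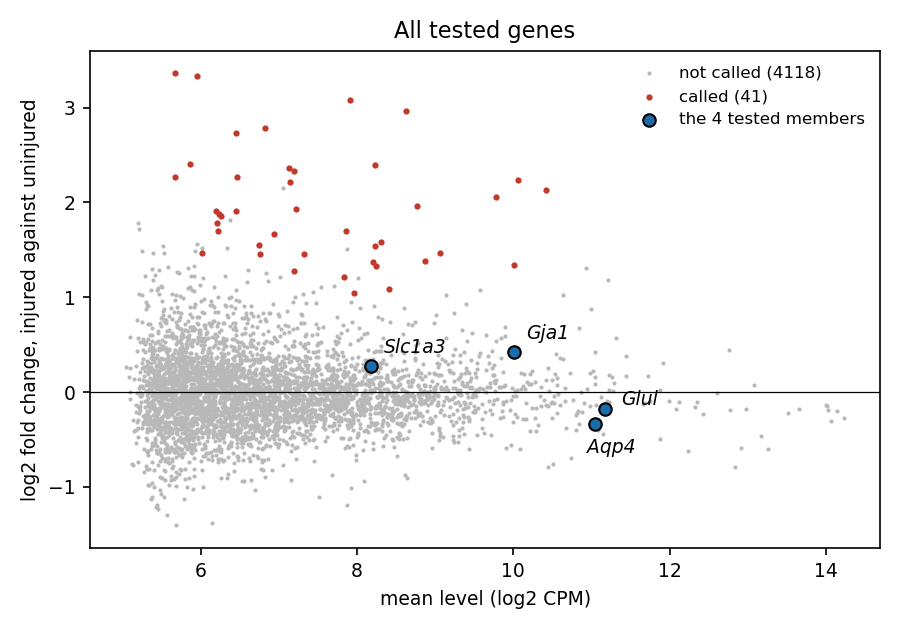
Fitted log2 fold change of injured against uninjured cord (vertical axis) against mean level in log2 CPM (horizontal axis) for the 4159 tested genes. The 41 called genes are red and the 4 tested genes of the set are blue. Aqp4, Glul, Gja1 and Slc1a3 lie among genes that were not called, at log2 fold changes of -0.34, -0.18, 0.43 and 0.28.

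Compared by abundance, Glul and Aqp4 ranked 49 and 50 among the tested genes by mean molecules per library (558 and 551). Gja1 ranked 130 with 273 and Slc1a3 ranked 712 with 74.4. The order of Glul and Aqp4 was not stable: Aqp4 had more molecules than Glul in uninjured replicates 1 and 2 and in injured replicate 1, and fewer in the other 5 libraries. In all 8 libraries Gja1 was below both and Slc1a3 was below Gja1. The identifiers whose levels most resembled the mean pattern of the 4 genes were ENSRNOG00000011227 and ENSRNOG00000048273, with Pearson correlations of 0.95 and 0.93 over the 8 libraries among 1069 genes with at least 50 molecules on average. These correlations describe the 8 libraries, which share depth and number: the mean pattern was highest in uninjured replicate 3 and next in injured replicate 3. For both identifiers no difference between the groups passed the test (edgeR adjusted p = 0.991 for each).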

How the data were processed

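The authors deposited 1 table of counts, whole numbers of molecules per Ensembl gene with no normalization, for 8 CEL-Seq2 libraries. Per the submitters' processing notes, HISAT2 2.0.4 and HTSeq 0.6.0 were used with build Rnor_6.0. The sources used here do not say how molecular identifiers were collapsed. Groups came from the labels, and columns were matched to titles. The 5 genes and all lists were chosen with earlier results of these data known. Lists of other genes were not used, since 0 of the 47357 genes in the reference table carried an Ensembl identifier.

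Genes passing edgeR's filterByExpr (minimum count 10, minimum total 15) were tested by the two-sided quasi-likelihood F test of edgeR 4.0.16 (R 4.3.3, TMM, robust), with Benjamini-Hochberg adjustment over 4159 genes and a threshold of 0.05. The test was checked on simulated data. Standard errors were derived from the fitted value and F. Intervals are 95%. P-values measure the spread between libraries, which may be technical. DESeq2 1.42.0 and limma-voom (limma 3.58.1), other scalings and filters, a replicate block and left-out libraries were alternatives. Ratios within a library were tested by exact permutation over 70 assignments, adjusted over 6 of the 10 pairs, since Slc1a2 had libraries with 0 molecules. These permutations ignore the pairing by number, and an exchange within pairs was added after seeing the data. Genes were named by membership, and 2 by correlation of log2 CPM (prior count 3) with the mean standardised pattern.

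Same-numbered libraries deviated together in log2 CPM (r = 0.39, 0.36, 0.17 and 0.45 across genes for numbers 1 to 4). Some libraries of different numbers matched or passed the lowest of these, the 0.168 of number 3. The values were 0.238 for uninjured 1 and injured 2, and 0.174 for uninjured 2 and injured 1, both above it. For uninjured 3 and injured 4 it was 0.157, just below. Number 3 was thus the weakest pair. All 4 same-number values passed 0.1, so the numbers were treated as pairs on the data, as the labels do not explain them. Totals ran from 119808 to 405537 molecules. Maxima per library were 3989 to 4080, near the 4096 identifiers that 6 bases allow. A correction for repeated identifiers was an alternative. It adds 12.5% to the highest count of the set, 875 for Aqp4.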

Additional observations from a re-analysis of the deposited data

Results flagged for a closer look

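The summed share of the 5 genes in the uninjured group had 1 library far from the others. It was 0.663% in uninjured replicate 3 against 0.490% to 0.494% in the other 3 uninjured libraries, and the gap to the nearest was 0.978 of the whole range, above the critical value of 0.829 for 4 libraries. Uninjured replicate 3 also had the fewest molecules, 119808, the highest CPM of Glul and Aqp4 among all 8 libraries, and a TMM factor of 0.764, the lowest of the 8. After correction for repeated identifiers its share was 0.524%, against 0.421% to 0.452% in the other uninjured libraries. The part of depth in this share was not tested. It was the only 1 of 22 groups of values checked in this way to be singled out, where chance alone singles out about 1 in 20.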

How the results depend on the processing

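The number of called genes, 41, was 110 with the replicate block, 98 with no filter on low counts, 62 without both libraries numbered 3, 86 in numbers 1 and 2 alone, 3 in numbers 3 and 4 alone, 21 after thinning to the lowest total and 72 with these number groups as a term. It was 23 to 77 with 1 library left out. The fit without both libraries numbered 3 (62 genes) was chosen after the data were seen. So were the replicate block without both libraries numbered 3 (383 genes) and the block with corrected identifiers (112 genes). Apart from Gja1 in the block without both libraries numbered 3 (log2 fold change 0.47), the block changed no call among the 4 genes. Over 100 alternative values of the 4 genes, 1 passed the threshold and 96 kept their direction. The 4 reversals were all of Glul: 0.080 without both libraries numbered 3, 0.079 in numbers 1 and 2 alone, 0.082 with the block and without number 3, and 0.23 without uninjured replicate 3. With 1 library left out, log2 fold changes ranged from 0.30 to 0.55 for Gja1, 0.14 to 0.41 for Slc1a3, -0.37 to 0.23 for Glul and -0.49 to -0.12 for Aqp4. The cause of these moves was not tested. Within-library log2 ratios, with 1 library left out, kept their direction in 5 of the 6 pairs, and Gja1 to Slc1a3 ranged from -0.051 (without uninjured replicate 1) to 0.29. After correction for repeated identifiers the mean summed share was lower in both groups. It was 0.437% against 0.514% as counted in injured libraries, and 0.455% against 0.535% in uninjured ones. Exchanging signs within pairs could not have called any of the 6 ratios, since the smallest p that 4 pairs can give is 0.125. Slc1a2 had too few molecules for a usable fold change in any fit. Slc1a3 had the fewest molecules of the other 4 genes, 31 to 118 per library.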
